A study of Mus musculus with 13 samples.

Results

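The genes described here encode the subunits of the proteasome, the protease that degrades ubiquitin-tagged proteins, and their RNA was measured in liver from 13 male B6C3F1 mice on Illumina bead arrays. Members were the rows of the deposited table whose name starts with Psm, then a letter from a to e, then a number, without Psmb8 and Psmb9. This rule found 39 of 18138 genes. One of them, Psmc3ip, encodes a partner of meiotic recombinases and is no proteasome subunit, which leaves 38 subunits and associated factors. The study asked what an exposure that began at 7 days of age leaves in the liver late in life. The control group (4 mice) drank deionized water alone. The DCA group (4 mice) was given 3.5 g/L dichloroacetic acid in the drinking water for 10 weeks and then water for 90 weeks. The PB group (5 mice) was given 0.06% phenobarbital, a rodent liver mitogen and tumour promoter, for 10 weeks and then water for 90 weeks. All groups share strain, sex and tissue, and each array is 1 archived frozen liver piece of 1 mouse. The labels do not say whether a piece held tumour tissue.

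The proteasome has a barrel-shaped core particle, in which outer rings of alpha subunits (Psma genes) control entry and inner rings of beta subunits (Psmb genes) hold the proteolytic sites. A regulatory particle caps the core. Its ATPase subunits (Psmc genes) unfold substrates, and its other subunits (Psmd genes) bind and remove ubiquitin. Activators encoded by the Psme genes can take the place of the regulatory particle. The transcription factors NRF1 (gene Nfe2l1) and NRF2 (gene Nfe2l2) are known to raise proteasome genes through antioxidant response elements, and interferon gamma raises the inducible subunits and the activators Psme1 and Psme2, which shape peptides for presentation to T cells.

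Promoter windows are shown for Psmb5 and Psme3, which had the smallest unadjusted p-values among the core and the activator genes, and for Psmb6, whose spread between arrays was the smallest of all. Each is the 250 bases before the transcription start in RefSeq (GRCm38.p6), written 5′ to 3′ on the strand of the gene. Psmb5 lies at chr14:54617996-54618245, minus strand, Psmb6 at chr11:70525107-70525356, plus strand and Psme3 at chr11:101315963-101316212, plus strand. Capitals mark the antioxidant response element core TGACNNNGC in Psmb5 and Psmb6, and the NF-Y box CCAAT, here on the opposite strand, in Psme3.
Psmb5: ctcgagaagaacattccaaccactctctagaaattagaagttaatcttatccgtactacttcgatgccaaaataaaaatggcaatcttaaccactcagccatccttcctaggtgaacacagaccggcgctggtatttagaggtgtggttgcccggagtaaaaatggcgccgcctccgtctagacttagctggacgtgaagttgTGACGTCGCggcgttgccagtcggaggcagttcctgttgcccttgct
Psmb6: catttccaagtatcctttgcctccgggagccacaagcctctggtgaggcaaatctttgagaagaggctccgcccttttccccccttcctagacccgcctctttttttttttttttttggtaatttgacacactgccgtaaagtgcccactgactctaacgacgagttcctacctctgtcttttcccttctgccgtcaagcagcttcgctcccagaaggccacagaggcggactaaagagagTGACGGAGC
Psme3: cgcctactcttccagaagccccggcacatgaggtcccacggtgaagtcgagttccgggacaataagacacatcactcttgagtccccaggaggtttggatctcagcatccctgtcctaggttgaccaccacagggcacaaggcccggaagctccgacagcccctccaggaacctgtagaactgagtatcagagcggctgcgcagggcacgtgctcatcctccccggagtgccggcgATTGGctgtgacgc
Motifs were searched on both strands of the windows of the 34 members with an entry. The antioxidant response element core was found in 5 of them (14.7%), namely Psmb5, Psmb6, Psmc6, Psmd9 and Psmd12, and in 11.5% of 27025 genes. CCAAT was found in 13 members (38.2%) and in 37.5% of all genes. The interferon response element, searched as GAAA, any 2 bases and GAAA, was found in 3 members (Psmb3, Psmd4 and Psmd9; 8.82%) and in 3.46% of all genes. A match is a run of letters and no shown binding site, and each printed window holds 1 match to the 3 motifs. Psmb1, Psmb2, Psmb7, Psmc3 and Psmd7 are named only.

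Of the 39 members, 29 passed the filter on dim genes, which asks that 4 or more arrays, of whatever group, have a detection p-value under 0.05. They were 4 of 7 alpha subunit genes, 7 of 8 beta subunit genes, 5 of 7 Psmc genes, 10 of 13 Psmd genes and 3 of 4 activator genes. On all 13 arrays 25 were detected, and Psmd6, Psmd9, Psmd10 and Psme2 were detected on 5, 7, 11 and 11 arrays. Psma1, Psma3, Psma6, Psmc6 and Psmd5 were not well above background on any array. Psma1, Psma3 and Psma6 are parts of every core particle, so for these genes the array gives a bound and no level. Psmc3ip was detected on 2 arrays and Psmd2 on 3. The last 3 of the 10 untested genes were bright but had high combined detection p-values over several probes: Psmb2 (mean raw intensity 731), Psme4 (597) and Psmd11 (158). Fitted without the filter, Psmb2 differed by -0.02 ± 0.09 (log2 difference ± SE) between PB and control and by -0.05 ± 0.10 between DCA and control. Psme4, the nuclear activator PA200, differed by -0.42 ± 0.15 between PB and control (limma adjusted p = 0.561 in that fit).

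The arrays differed in brightness, and this moved with the proteasome genes. Mean raw intensity was 234.1 to 388.3 in control, 231.9 to 462.1 in DCA and 188.6 to 356 in PB. After normalization, the median deviation of the 29 genes from their own means was lowest on the dimmest array, PB 3 (-0.29), and highest on the brightest, DCA 1 (0.18). Control 4 (-0.24) and PB 2 (-0.17) were also low, while the same median over all genes stayed between -0.03 and 0.01 on every array. Control 4 was the lowest array for 10 of the 29 genes, PB 3 for 6, and PB 1 was the highest for 7. PB 1 also stood apart in cell markers. Its Kupffer and stellate sums were the lowest too (854 and 531). Its summed intensity was 519 for 7 sinusoidal endothelial markers, against 1417 to 3474 on the other arrays, and 3 of 6 proliferation markers were detected on it, against 1 on each other array. Control 2 had the highest Kupffer sum (4042, against 854 to 2457 on the other arrays) and the highest neutrophil sum (1850). Erythroid sums were 7893 to 10350 in control, 4968 to 8412 in DCA and 3568 to 9436 in PB. Hepatocyte markers were detected on all arrays for 8 of 10 genes, with sums of 61910 to 70960 over the arrays. Lymphocyte and plasma cell markers were near background in all groups (0 of 8 detected on all arrays). In a piece of liver, fewer cells of a type and less RNA per cell cannot be told apart. The part of brightness and of cell make-up in the differences below was not tested beyond the fit with brightness as a covariate.

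**Figure D1:**
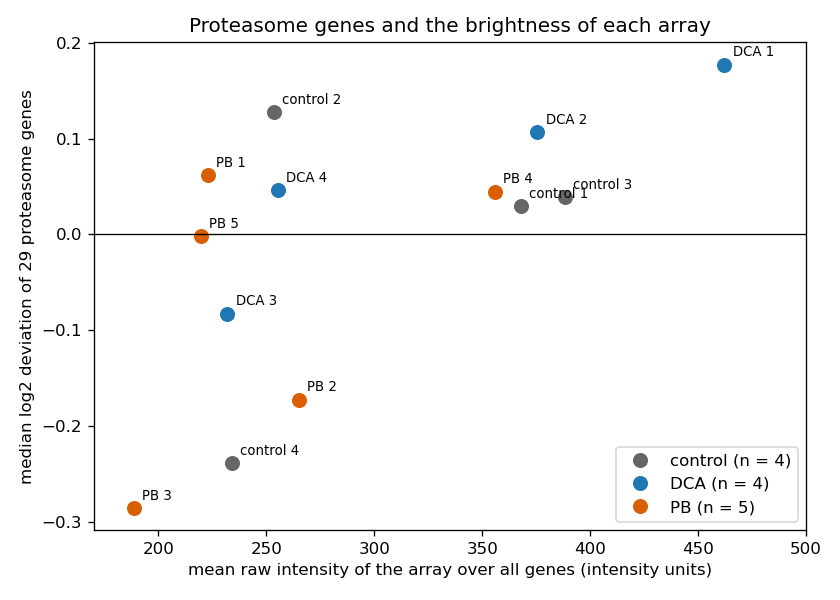
Median log2 deviation of the 29 tested proteasome genes on each array (vertical axis) against the array's mean raw intensity over all genes in intensity units (horizontal axis), 1 point per array, coloured by group. PB 3 lies lowest at -0.29 and DCA 1 highest at 0.18.

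No proteasome gene passed an adjusted p of 0.05 in any comparison, with limma and Benjamini-Hochberg adjustment over 8431 genes. Of all genes tested, 0.0712% passed between PB and control, 0 between DCA and control and 0.107% between DCA and PB, and in the F test over the groups 0.107% passed and 0 members. The smallest adjusted p of a member was 0.279 between PB and control, 0.995 between DCA and control and 0.168 between DCA and PB. Before adjustment, a p under 0.05 was reached by 3 of 29 members between PB and control (10.3%, against 10.1% of all genes), 0 of them higher (4.69% of all genes) and 3 lower (5.42%). Between DCA and control it was reached by 3 (10.3%, against 4.42%), of which 1 was higher (2.25%) and 2 lower (2.17%). Between DCA and PB it was reached by 5 (17.2%, against 14.5%), of which 3 were higher (7.20%) and 2 lower (7.31%). In the F test 11.3% of all genes and 6 members reached it. Groups did not overlap for 0 members between PB and control, where 3.48% of all genes were so separated (1.57% higher and 1.91% lower). Between DCA and control this held for Psme1 alone, which was higher, against 2.41% of all genes (1.06% higher and 1.35% lower). Between DCA and PB it held for Psme3, which was higher, and for Psmc4 and Psmd7, which were lower, against 5.98% of all genes (3.07% higher and 2.91% lower). When arrays were weighted by their quality, 4 members passed after adjustment between DCA and PB (Psme3, Psmb5, Psmd7 and Psmb7), and so did 3.65% of all genes. Each array is 1 mouse, so these p-values measure the spread between mice of this study. The number of members with an unadjusted p under 0.05 depended on single arrays. The count between DCA and control was 0 without control replicate 4, DCA replicate 1 or DCA replicate 2 and 5 without DCA replicate 3. Leaving out 1 of control 2, control 3, PB 2 and PB 5 gave 1. Between DCA and PB it was 3 without DCA replicate 2. Between PB and control it was 2 to 4 when any 1 array was left out. The 95% interval of a member's log2 difference reached a median of 0.35 to 0.37 to either side of it.

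The direction of the genes as a group differed little from that of all genes between PB and control. There 14 of 29 lay higher (48.3%, against 49.0% of all genes), with a median log2 difference of -0.02 against -0.01 over all genes. Between DCA and control 19 of 29 lay higher (65.5%, against 49.0%), with a median of 0.07 against -0.01. Between DCA and PB 18 of 29 lay higher in DCA (62.1%, against 49.4%), with a median of 0.14 against 0.00. With the array's mean intensity as a covariate the last median was 0.08, and a background fitted on all rows gave 0.06. It was also 0.08 in the authors' normalized values and without background correction, and 18 genes lay higher in each of these. The values against control depended on several single arrays. Between PB and control, 9 lay higher with a median of -0.14 without control replicate 4, 10 with a median of -0.11 without PB replicate 1, and 10 with a median of -0.05 without PB replicate 4. Without control replicate 2 the count was 16 and the median 0.02, and array weights gave 10 and -0.14. For DCA against control, 13 lay higher with a median of -0.01 without control replicate 4, 15 with a median of 0.00 without DCA replicate 1, and 18 with a median of 0.01 without DCA replicate 2. The median there was 0.02 without control replicate 2 and 0.12 without control replicate 3. Both comparisons share the control arrays.

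**Figure D2:**
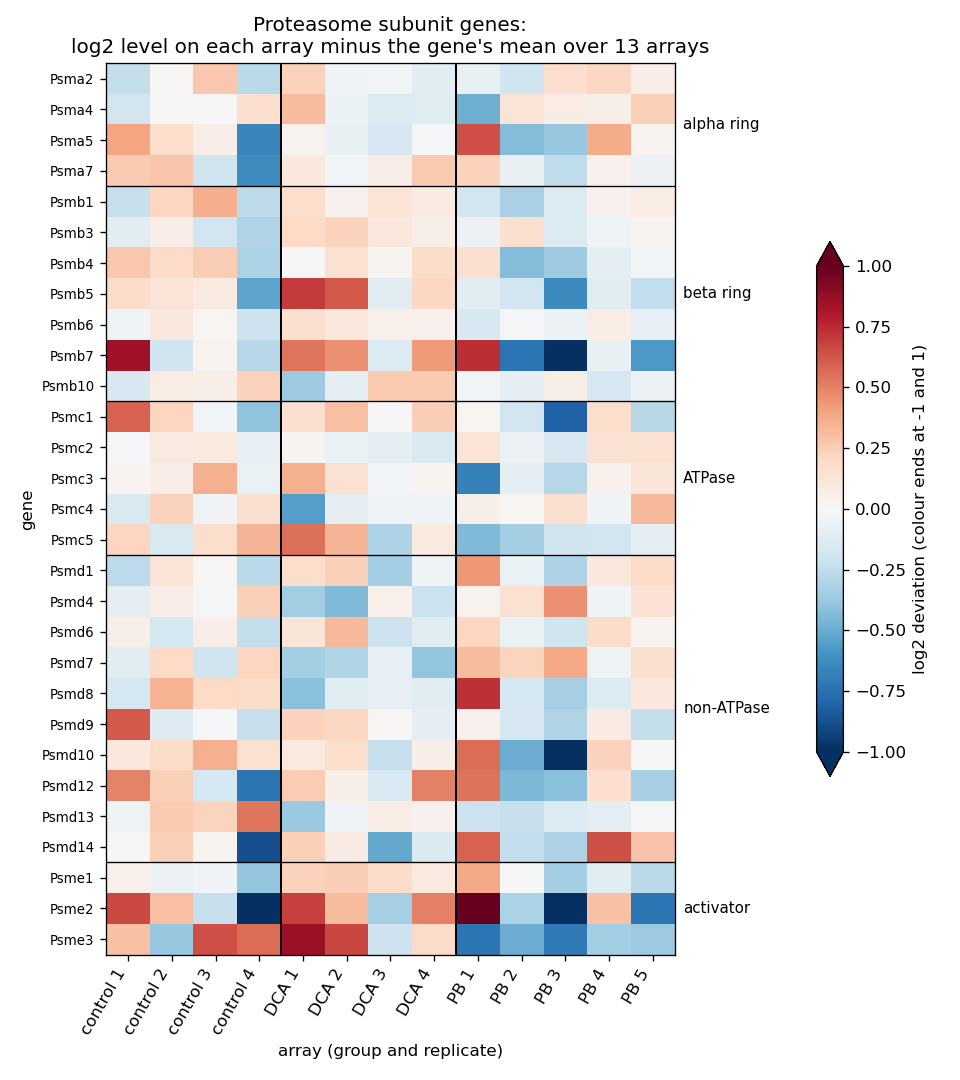
Log2 level of each tested proteasome gene on each array minus the gene's mean over 13 arrays, with genes in rows by subcomplex and arrays in columns by group. Red is above and blue below the gene's mean. Psme2 runs from -1.34 (control 4) to 1.21 (PB 1) and Psmb6 from -0.20 to 0.16.

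**Figure D3:**
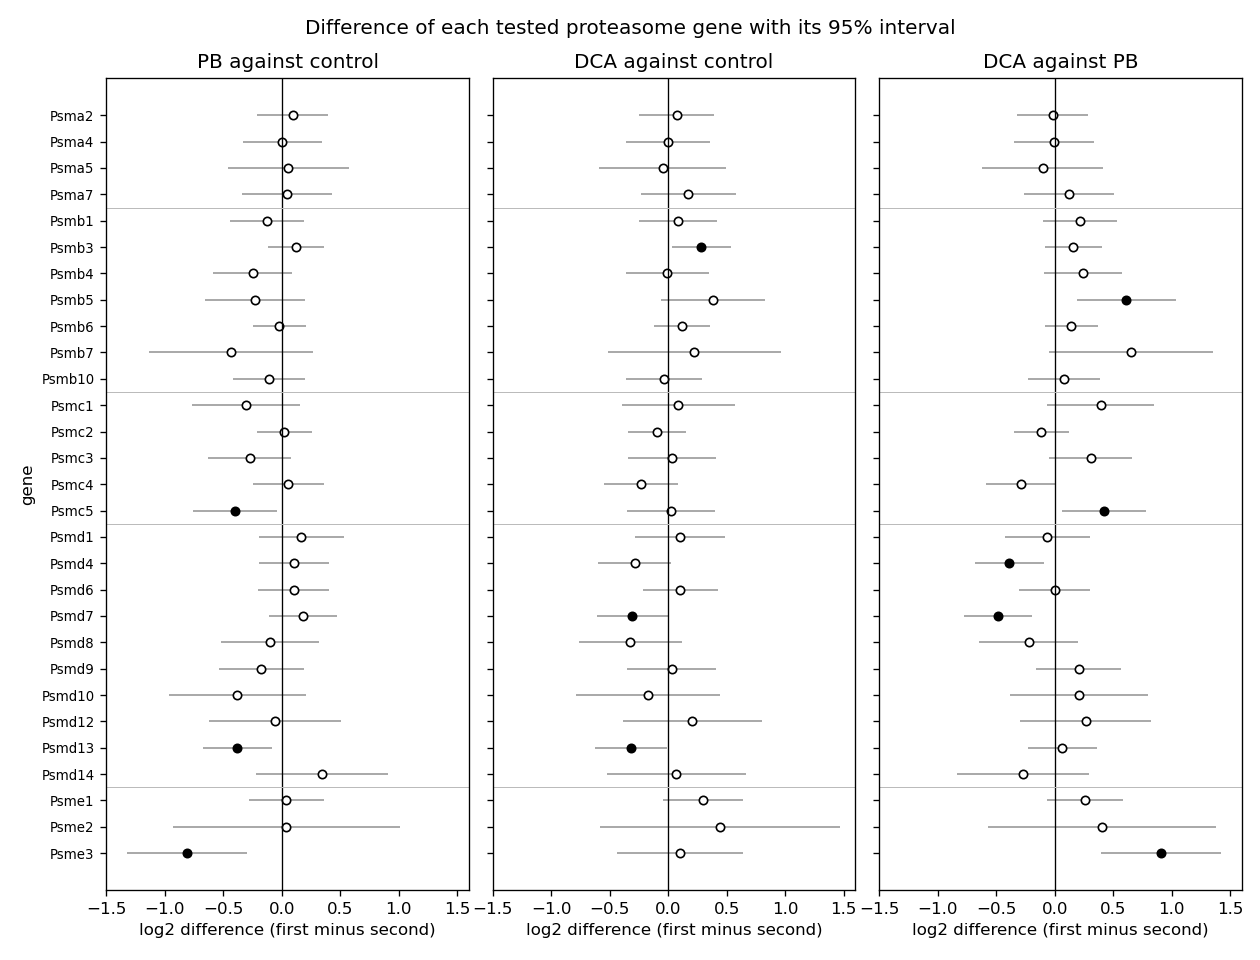
Log2 difference of each of 29 proteasome genes in the 3 comparisons (points) with its 95% interval from limma (lines). Filled points have an unadjusted p under 0.05, 3, 3 and 5 genes, and none passed after adjustment.

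Among the tested alpha subunit genes, Psma2, Psma4, Psma5 and Psma7, no log2 difference was outside -0.10 to 0.17 in any comparison, and none had an unadjusted p under 0.05. Psma5 had the widest spread of the 4, from 9.83 on control 4 to 11.13 on PB 1.

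The constitutive proteolytic sites are carried by Psmb5 (chymotrypsin-like), Psmb6 (caspase-like) and Psmb7 (trypsin-like). Psmb5 was at 7.84, 7.78, 7.75 and 7.13 (normalized log2 intensity) on the control arrays, 8.35, 8.27, 7.54 and 7.87 on the DCA arrays, and 7.55, 7.46, 7.02, 7.54 and 7.41 on the PB arrays. DCA 1 and DCA 2 were above every other array, and DCA 3 lay within the range of PB. The log2 difference between DCA and PB was 0.61 ± 0.20 (SE; 1.53-fold, limma adjusted p = 0.216), and 0.38 ± 0.15 with the array's mean intensity as a covariate. Psmb7 was at 9.27, 8.23, 8.47 and 8.14 in control, 8.97, 8.89, 8.29 and 8.86 in DCA, and 9.17, 7.70, 7.40, 8.36 and 7.86 in PB. All groups overlapped, with control 1 and PB 1 highest and PB 3 lowest, and DCA lay above PB by 0.65 ± 0.33 (limma adjusted p = 0.370). Psmb6 was the steadiest member, at 10.58, 10.72, 10.63 and 10.41 in control, 10.77, 10.72, 10.66 and 10.66 in DCA, and 10.45, 10.60, 10.55, 10.69 and 10.53 in PB. Its residual SD was 0.0952 and its largest log2 difference 0.14 ± 0.10, between DCA and PB. Psmb5 and Psmb6 both carry the antioxidant response element core shown above.

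Of the other beta subunit genes, Psmb1, Psmb3 and Psmb4 are structural, without a proteolytic site of their own. Psmb3 differed by 0.28 ± 0.12 between DCA and control (limma adjusted p = 0.995), at 10.85 ± 0.08 (SD, n = 4) against 10.56 ± 0.15 (SD, n = 4), and the groups overlapped. All 7 tested beta subunit genes lay higher in DCA than in PB, with log2 differences of 0.08 to 0.65 and a median of 0.21. Psmb2, the beta subunit gene that was not tested, differed by -0.03 ± 0.09 between DCA and PB in the fit without the filter. Against control, 5 of the 7 lay higher in DCA and 6 of the 7 lower in PB. Of the 7 only Psmb5 (DCA against PB) and Psmb3 (DCA against control) had an unadjusted p under 0.05.

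Among the ATPase genes, Psmc5 and Psmc4 stood at opposite ends. Psmc5 was at 9.36, 8.99, 9.32 and 9.48 in control, 9.69, 9.48, 8.84 and 9.24 in DCA, and 8.70, 8.80, 8.94, 8.95 and 9.05 in PB. The log2 difference between PB and control was -0.40 ± 0.17 (limma adjusted p = 0.448), and DCA lay above PB by 0.42 ± 0.17 (adjusted p = 0.278). Control 2 and DCA 3 fell within the PB range. Psmc4 was at 10.51, 10.89, 10.63 and 10.83 in control, 10.11, 10.57, 10.62 and 10.62 in DCA, and 10.72, 10.68, 10.83, 10.62 and 10.99 in PB. Every DCA array was below every PB array, though DCA 3 and DCA 4 were close to PB 4. The difference was -0.29 ± 0.14 (limma adjusted p = 0.359), and -0.17 without DCA replicate 1 and -0.14 with the intensity covariate. Psmc1 and Psmc3 lay higher in DCA than in PB by 0.39 ± 0.21 and 0.31 ± 0.17, and Psmc2 differed by -0.11 ± 0.11.

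The Psmd genes split in direction between DCA and PB, 4 higher and 6 lower in DCA. Psmd7 encodes the partner of the deubiquitinase Psmd14 in the lid of the regulatory particle. It was at 8.78, 9.09, 8.70 and 9.11 in control, 8.55, 8.59, 8.81 and 8.50 in DCA, and 9.21, 9.11, 9.28, 8.84 and 9.05 in PB. No DCA array reached the PB range, and control spanned the gap. The log2 difference between DCA and PB was -0.49 ± 0.13 (0.713-fold, limma adjusted p = 0.172), and it was -0.36 ± 0.12 with the intensity covariate. Between DCA and control it was -0.31 ± 0.14 (adjusted p = 0.995). Psmd4, a ubiquitin receptor, was at 11.99, 12.15, 12.06 and 12.33 in control, 11.73, 11.65, 12.14 and 11.87 in DCA, and 12.12, 12.24, 12.54, 12.05 and 12.23 in PB. DCA 3 alone of its group fell within the PB range, and the difference between DCA and PB was -0.39 ± 0.14 (limma adjusted p = 0.244), or -0.24 with the covariate. Psmd14 itself was at 6.69 ± 0.50 (SD) in control, 6.76 ± 0.32 in DCA and 7.03 ± 0.45 in PB, with a difference of -0.27 ± 0.26 between DCA and PB.

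Psmd13, a structural lid subunit, lay below the control mean in both exposed groups. It was at 10.85, 11.16, 11.12 and 11.44 in control, 10.53, 10.86, 10.97 and 10.94 in DCA, and 10.69, 10.67, 10.77, 10.81 and 10.88 in PB. Control 1 lay within the range of both exposed groups, and control 4 was the highest array. The difference was -0.38 ± 0.14 for PB (limma adjusted p = 0.394) and -0.32 ± 0.14 for DCA (adjusted p = 0.995), against the same control arrays. Without control replicate 4 the value for PB was -0.28, and with the covariate it was -0.47 ± 0.13. Psmd8 differed by -0.32 ± 0.21 between DCA and control. Psmd5, Psmd9 and Psmd10 encode chaperones that assemble the ATPase ring, and of these Psmd10 (gankyrin) differed by -0.38 ± 0.27 between PB and control, with PB 3 at 5.61 and PB 1 at 7.37.

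The largest differences were those of Psme3, the nuclear activator PA28 gamma, which promotes degradation without ubiquitin. It was at 8.25, 7.58, 8.60 and 8.52 in control, 8.82, 8.63, 7.75 and 8.14 in DCA, and 7.23, 7.46, 7.25, 7.61 and 7.60 in PB. All 5 PB arrays were below all 4 DCA arrays and below 3 of 4 control arrays, and control 2 lay within the PB range. Psme3 was 0.571-fold in PB against control, a log2 difference of -0.81 ± 0.24 (limma adjusted p = 0.279). DCA lay above PB by 0.91 ± 0.24 (1.87-fold, 95% interval 0.39 to 1.42, limma adjusted p = 0.168). With the intensity covariate these values were -0.60 ± 0.20 and 0.65 ± 0.21. Between DCA and control the difference was 0.10 ± 0.25.

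**Figure D4:**
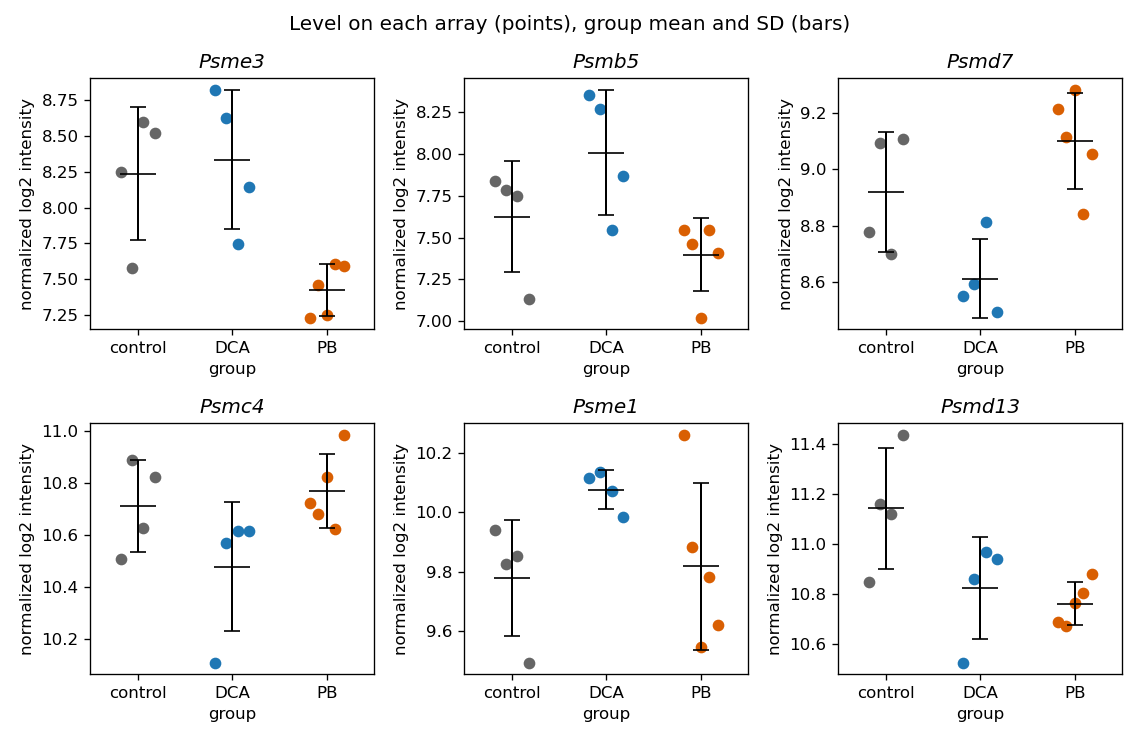
Normalized log2 intensity of 6 proteasome genes on each array (points) by group, with group mean and SD (bars). For Psme3 the 5 PB arrays lie between 7.23 and 7.61, below all DCA arrays, and for Psmd7 and Psmc4 all DCA arrays lie below all PB arrays.

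Psme1 and Psme2 encode the cytoplasmic activator PA28 alpha and beta, which interferon gamma induces together with Psmb10, the inducible counterpart of Psmb7. Psme1 was at 9.94, 9.83, 9.85 and 9.49 in control, 10.12, 10.14, 10.07 and 9.99 in DCA, and 10.26, 9.88, 9.55, 9.78 and 9.62 in PB. All DCA arrays were above all control arrays, while PB 1 was the highest array of all. The difference between DCA and control was 0.30 ± 0.16 (limma adjusted p = 0.995), and 0.20 without control replicate 4. Psme2 had the widest spread of all members, with a residual SD of 0.775. It was at 6.37, 6.01, 5.49 and 4.38 in control, 6.40, 6.03, 5.38 and 6.22 in DCA, and 6.92, 5.40, 4.70, 6.01 and 4.99 in PB. Control 4 lay below 4.52 to 4.62, the level of the dimmest detected genes on these arrays, so its value is only a bound. Psmb10 was at 9.58, 9.81, 9.80 and 9.97 in control, 9.37, 9.64, 10.00 and 10.00 in DCA, and 9.71, 9.64, 9.79, 9.57 and 9.68 in PB. The 3 groups overlapped, and no difference of Psmb10 exceeded -0.11 ± 0.14 in size.

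These genes can be set beside other interferon-responsive genes on the same arrays. Of 15 tested genes of interferon response and class I presentation, 15 lay lower in DCA than in PB and 0 passed after adjustment, with a median of -0.55. Before adjustment 9 had a p under 0.05, all lower, and 7.31% of all genes were lower at that p. Over all genes, 49.4% of the differences between DCA and PB were above 0. Usp18, a brake on interferon signalling, led the 9 at -1.62 ± 0.34 (limma adjusted p = 0.0810). Irgm1, an interferon-induced GTPase, was among them at -0.68 ± 0.15 (adjusted p = 0.117). Usp18 and Irgm1 were detected on 8 and 7 arrays, with lowest values of 6.44 (DCA 3) and 8.96 (DCA 1). The filter may have kept them mainly through arrays where they were high. Against control, 12 of the 15 lay higher in PB, with a median of 0.44. In DCA 13 of the 15 lay lower than in control, with a median of -0.17. Over all genes, 49.0% lay above control in each comparison. At an unadjusted p under 0.05, 5 were higher in PB (4.69% of all genes) and 3 lower in DCA (2.17%). Both comparisons share the control arrays. This list, too, was chosen with earlier results of these data known. Psmb9, which replaces Psmb6 in the inducible core, was at 7.42, 7.72, 7.70 and 6.99 in control, 7.00, 7.55, 7.45 and 7.63 in DCA, and 8.04, 8.04, 7.73, 7.90 and 7.98 in PB. All PB arrays were above all other arrays, PB 3 only just above control 2. Its difference between DCA and PB was -0.53 ± 0.17 (limma adjusted p = 0.216) and between PB and control 0.48 ± 0.17 (adjusted p = 0.394). Psmb8, which replaces Psmb5, differed by -0.05 ± 0.30 between DCA and PB. Between DCA and PB, the members Psme1, Psme2 and Psmb10 lay at 0.26 ± 0.15, 0.41 ± 0.45 and 0.08 ± 0.14, the sign opposite to that of the 15 genes. Whether their response differed from that of Psmb9 was not tested.

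Other genes of the pathway were counted from lists chosen with earlier results of these data known, and 0 of any list passed after adjustment. Of 3 assembly chaperone genes tested, Psmg3 differed by -0.42 ± 0.18 between PB and control (limma adjusted p = 0.470), and Pomp, which the core needs to mature, differed by -0.17 ± 0.16. Of 8 tested genes for proteins that associate with the particle, 5 lay higher in PB than in control, and Zfand2a, a stress-induced factor, did so by 0.60 ± 0.18 (adjusted p = 0.309). Of 8 shuttle and p97 genes 6 lay lower in PB than in control. Among them were Ubqln4, a ubiquitin receptor, at -0.32 ± 0.13 (limma adjusted p = 0.434) and Vcp, the p97 unfoldase, at -0.23 ± 0.15. Over all genes, 49.0% of the differences between PB and control were above 0, and lists this short can depart from that share easily. The ubiquitin gene Ubb differed by 0.18 ± 0.20 between PB and control and by 0.33 ± 0.21 between DCA and control.

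Regulators and other targets of the same transcription factors were measured on the same arrays. Of 8 listed regulators 4 were tested. Nfe2l2, detected on 3 arrays, did not pass the filter. It was at 4.64 to 5.14 in control, 5.22 to 5.52 in DCA and 5.28 to 5.96 in PB, and its difference was not tested. Nfe2l1 differed by 0.05 ± 0.14 between PB and control and by -0.09 ± 0.15 between DCA and control. Mafg, a small MAF partner of NRF1 and NRF2, lay above control in PB by 0.74 ± 0.20 (limma adjusted p = 0.255), with no overlap of the groups, and in DCA by 0.46 ± 0.21 (adjusted p = 0.995). Ddi2, the protease that activates NRF1, lay above control in DCA by 0.49 ± 0.23 (limma adjusted p = 0.995) and in PB by 0.22 ± 0.22. Of 17 tested NRF2 targets 13 lay higher in PB than in control, with a median of 0.31, and 7 of these had an unadjusted p under 0.05, led by the glutathione transferase Gsta1 at 2.71 ± 0.58 (limma adjusted p = 0.118). Over all tested genes, 49.0% lay higher in PB, and 4.69% were higher at an unadjusted p under 0.05. Among the 7, Gstm3 was detected on 4 arrays, the least the filter allows. Its highest values were on PB 1, PB 2 and PB 5 (5.94, 5.45 and 5.87) and DCA 3 (5.29), so it was tested mainly because it was high in PB. Cbr3 was detected on 9 arrays. Its control values, 4.66 to 4.88, were near the level of the dimmest detected genes (4.52 to 4.62). The 7 targets did not rise evenly over the PB arrays, and Gsta1 alone of them had no overlap with control. Srxn1 was at 8.11, 7.92, 6.52, 6.74 and 9.15 on the PB arrays, against 6.41 to 6.64 in control. Gstm1 on PB 3 and PB 4 (11.22 and 11.16) lay within the control range, as did Cbr3 and Gsta2 on PB 3 (4.69 and 6.87). G6pdx of the pentose phosphate pathway, named after its values were seen, was the only target lower at an unadjusted p under 0.05. It differed by -0.42 ± 0.15 with no overlap of the groups (limma adjusted p = 0.394). G6pdx was dim, though, and was detected on 8 arrays. Its PB values, 4.58 to 4.73, were near the level of the dimmest detected genes and are close to bounds. All control and DCA values were higher (4.76 to 5.44), so it may have passed the filter through those groups. In DCA 13 of the 17 also lay above control, as did 49.0% of all genes, with a median of 0.06 and 0 at an unadjusted p under 0.05. Between PB and control the 29 proteasome genes had a median of -0.02. The 4 tested ones with the antioxidant response element core, Psmb5, Psmb6, Psmd9 and Psmd12, had log2 differences of -0.23, -0.02, -0.18 and -0.06. Psmd9 was detected on 7 arrays, and its PB mean of 4.51 lay below the level of the dimmest detected genes.

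The subunits did not vary as a single block within groups. With group means removed, the median correlation over 406 pairs of members was 0.176 (Pearson) and 0.173 (Spearman) across the 13 arrays, against 0.000208 over pairs of all tested genes. Over 0.5 were 29.1% of the member pairs, against 11.8% of all pairs, and 42.9% were below 0, against 50% of all pairs. Without control 4 and PB 3 the median was 0.066 and 20.4% exceeded 0.5, against 13.6% of all pairs. All pairs share the same arrays and their brightness, so these are descriptions. Psma5, Psmb5, Psmd14 and Psme1 had the highest median correlations with the other members (0.49 to 0.57). Psmd4 (-0.53), Psmb10 (-0.41) and Psmd7 (-0.38) had the lowest. The correlation of each member with its closest other member was 0.629 to 0.943, each the largest of many over the same arrays. Psmc5 and Psme3 were each other's closest member (0.895), within that range. The residual SD of members had a median of 0.242, against 0.277 for all tested genes.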

How the data were processed

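Each of 13 arrays was 1 mouse liver, and groups were taken from the labels (control 4, DCA 4, PB 5). Replicate numbers only name arrays. The authors deposited a table of intensity per gene on a linear scale with a detection p-value on each array, made in GenomeStudio, as the submitters' processing notes name it with no version, 1 row per gene. A second deposited table of normalized intensity, with normalization steps not given in the sources used here, was an alternative. For background, normexp (limma, offset 16) took its noise level from those p-values, and then quantile normalization and log2 were applied. The background was fitted on the 13668 rows whose p-values were whole multiples of 1/798 (tolerance 0.001 after multiplying by 798), taken as single probes. The background SD was 4.32 to 12.2 intensity units there and 57.3 to 150 on all rows. The filter kept 8431 of 18138 genes (46.5%), those whose detection p-value passed 0.05 on 4 arrays or more. Group means were fitted to all 13 arrays in limma 3.58.1 (R 4.3.3), two-sided, with Benjamini-Hochberg adjustment over these genes and calls at 0.05. A difference is printed ± SE, a group level ± SD. The number of arrays limits the precision. The fit was tested on simulated data. Genes given with values on each array were members with an unadjusted p under 0.01, with groups that did not overlap, or listed by name (Psmb5, Psmb6, Psmb7, Psmb10, Psme1, Psme2). Psmd4, Psmd13 and Psmc5 were added after their values were seen. Members and lists were chosen with earlier results of these data known. No genome build is given for the arrays, and coordinates belong to the RefSeq promoter windows only.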

Additional observations from a re-analysis of the deposited data

Results flagged for a closer look

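For each of the 29 tested genes in each group, the highest and the lowest array were compared with the rest of the group by Dixon's test. It picked out 8 of 87 gene and group pairs, where chance alone gives about 1 in 20 (4.35). Control 4 was far below its group for Psmb4, at 11.33 against 11.83 to 11.91, and for Psmb5, at 7.13 against 7.75 to 7.84. PB 3 was low for Psmb5, at 7.02 against 7.41 to 7.55. DCA 1 stood apart for 3 genes, high for Psma4 at 11.47 against 11.01 to 11.08, and low for Psmc4 at 10.11 against 10.57 to 10.62 and for Psmd8 at 9.39 against 9.69 to 9.72. DCA 3 was low for Psmb7, at 8.29 against 8.86 to 8.97. PB 1 was low for Psma4, at 10.66 against 11.21 to 11.39. Control 4 and PB 3 also had the lowest medians over all proteasome genes, and DCA 1 was the brightest array.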

How the results depend on the processing

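The count of 0 proteasome genes past an adjusted p of 0.05 held under all alternatives run between PB and control, between DCA and control and in the F test. Between DCA and PB it was 4 with array weights, namely Psme3 (0.93 ± 0.21, limma adjusted p = 0.0314), Psmb5 (0.68 ± 0.16, adjusted p = 0.0359), Psmd7 (-0.47 ± 0.12, adjusted p = 0.0427) and Psmb7 (0.87 ± 0.23, adjusted p = 0.0498), and 0 under all others. With these weights 3.65% of all genes passed, and PB 1 had the lowest weight (0.350). Leaving out 1 array gave 9 to 16 members higher in PB than in control, the lowest without control replicate 4. The cause was not tested in either case. None of the 27 alternatives run turned the direction of a single-gene difference recomputed under them, those of Psmc5, Psmd13, Psme3, Psmb3, Psmd7, Psme1, Psmb5, Psmc4 and Psmd4. These genes were picked for an unadjusted p under 0.05 or for groups that did not overlap. Several alternatives cannot change a difference at all. They are the changes of filter, the variance trend, the fit on only the groups compared and leaving out an array of the group not compared. The unchanged direction was thus partly fixed in advance. Alternatives chosen after seeing the data were the array's mean intensity as a covariate, quantile normalization after log2, leaving out control 4 and PB 3 together, and a filter on raw intensity over 150. With the covariate the smallest adjusted p between DCA and PB was 0.413. No paired analysis was possible because replicate numbers pair no mice. Dim genes such as Psmd6, Psmd9 and Psme2 were limited by signal over background.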
